A study of Mus musculus with 6 samples.

Results

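Cxcl1, Cxcl2, Cxcl3, Cxcl5 and Ppbp are the mouse CXC chemokines that attract neutrophils, Cxcr1 and Cxcr2 are their receptors, and Csf3 and Csf3r encode granulocyte colony-stimulating factor (G-CSF) and its receptor. These 9 genes were taken by name from the gene probes of the arrays, out of 37325 gene names on 56605 gene probes. Each of the 9 genes had 1 probe.

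These chemokines are made by epithelium, macrophages and stroma upon stimulation by IL-1, TNF or IL-17, and they bind Cxcr2 on circulating neutrophils, which then leave the vessels and enter the tissue. G-CSF drives the production of neutrophils in the bone marrow. In the inflamed colon this axis feeds neutrophils into the mucosa, and in colitis-associated tumors it is known as a source of tumor-associated neutrophils.

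The arrays measured colon tissue with tumors from male C57BL/6 mice, bought as young adults, in which colitis-associated cancer had been induced in both groups by injection of the carcinogen AOM (10 μg/g) followed by drinking water with 2% DSS, an agent that injures the colon lining. From the tumor-bearing mice, 3 were given the complex named Rgnanomedicine in the labels, which is RG@M-γ-CD, a mannose-modified γ-cyclodextrin loaded with the multi-kinase inhibitor regorafenib (RG), at 30 μg/g by mouth, equal to 10 μg/g RG. The other 3 mice were given PBS. Treatment lasted 21 days, the colons were taken 14 days later, and 1 one-color Agilent array was hybridized per mouse.

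Levels are log2 processed intensities minus the array's own 75th percentile (gene probes), so that a value of 0 is as bright as that percentile, and changes are RG@M-γ-CD minus PBS. The share of gene probes well above background ran from 49.65% to 55.15% over the arrays, and 0 gene spots were saturated. All 12 colon epithelium markers on the list were well above background on all 6 arrays. The 6 arrays shared 1 slide and 1 scan, with the 3 RG@M-γ-CD arrays and PBS replicate 1 in row 1 and the other PBS arrays in row 2. A fit with the slide row as a block thus compares the 3 RG@M-γ-CD arrays with PBS replicate 1 alone. A heat map in the study's supplement sets arrays 6, 7 and 8 (RG@M-γ-CD replicates 2 and 3 and PBS replicate 1) apart from arrays 5, 10 and 11 (RG@M-γ-CD replicate 1 and PBS replicates 2 and 3), which goes against the labels for replicate 1 of both groups. Results are given by the labels, and beside them without these arrays. With 3 arrays per group, an exact two-sided permutation test cannot give a p below 0.10.

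Cxcl1, Cxcl2, Cxcl3, Cxcl5 and Ppbp lie in 1 run on chromosome 5, in the order Cxcl5, Ppbp, Pf4, Cxcl3, Cxcl15, Cxcl1 and Cxcl2 in the RefSeq gene table. The promoters of Cxcl1, Cxcl2 and Cxcl3 are shown because these neighbors share 2 runs of at least 8 letters. Of the 9 genes, 7 had an entry in the RefSeq promoter table (GRCm38.p6). The 110 bases before each annotated start are given 5′ to 3′ on the plus strand. Capitals mark the shared runs: GGGAATTTCCC, of the kind that NF-kB, the transcription factor of the IL-1 and TNF response, is known to bind, and ATAAAAGG, a TATA-type sequence.
Cxcl1, chr5:90891135-90891244: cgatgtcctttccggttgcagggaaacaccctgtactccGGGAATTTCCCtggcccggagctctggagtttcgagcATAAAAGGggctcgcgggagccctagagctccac
Cxcl2, chr5:90903789-90903898: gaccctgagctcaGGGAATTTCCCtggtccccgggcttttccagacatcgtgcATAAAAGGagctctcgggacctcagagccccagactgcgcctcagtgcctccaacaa
Cxcl3, chr5:90785991-90786100: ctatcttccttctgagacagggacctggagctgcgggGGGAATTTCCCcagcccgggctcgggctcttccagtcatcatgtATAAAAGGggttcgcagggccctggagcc
The letters were taken from these 3 promoters, and both strands were searched. In the 32851 promoter windows of the table, which run on past the start, GGGAATTTCCC was present in 14 (0.0426%) and ATAAAAGG in 577 (1.76%). Both were present in 3 windows (0.00913%), those of Cxcl1, Cxcl2 and Cxcl3. GGGAATTTCCC began at position −71 from the start of Cxcl1, −97 from that of Cxcl2 and −73 from that of Cxcl3. Of the other 4 genes with an entry, Ppbp held ATAAAAGG on the opposite strand, and Cxcr1, Cxcr2 and Csf3r held neither run of letters.

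The chemokines were lower on RG@M-γ-CD replicates 2 and 3 than on the PBS arrays, while RG@M-γ-CD replicate 1 lay close to PBS for several of them. No gene passed an adjusted p of 0.05 with the arrays as labelled (0 of 19087 genes tested, 0%, limma with Benjamini-Hochberg adjustment), and 419 genes, 2.2%, lay below an unadjusted p of 0.05. The methods' t-test also left 0 genes after adjustment. The adjusted p from limma was 0.99998 for each of the 7 tested genes among the 9. Csf3 and Cxcr1 were not well above background on any array and were not tested. Of the tested genes, Cxcl1, Cxcl5 and Csf3r were well above background on all 6 arrays, whereas Cxcl2, Cxcl3, Ppbp and Cxcr2 passed through the PBS arrays alone. For these 4 genes a low RG@M-γ-CD value was built into the filter.

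**Figure D1:**
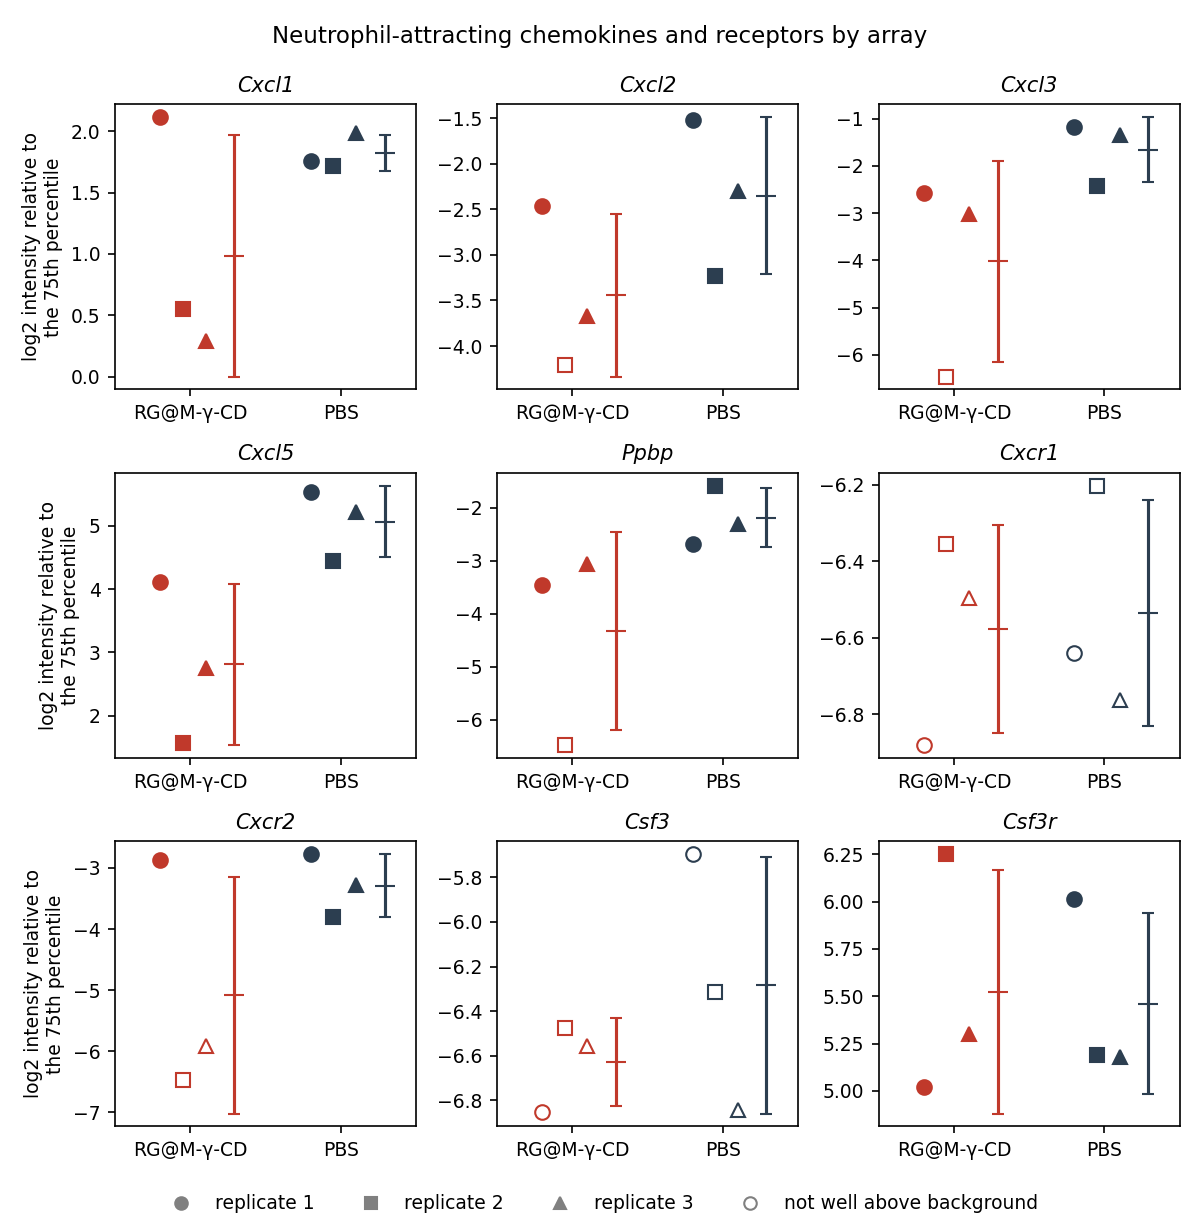
Level of each gene on each array, as log2 intensity relative to the array's 75th percentile, for 3 RG@M-γ-CD (red) and 3 PBS (dark) arrays, with each panel on its own scale. Symbols give the replicate, open symbols were not well above background, and bars are the mean ± SD. Cxcl3, Cxcl5 and Ppbp do not overlap between the groups, and RG@M-γ-CD replicate 1 is the highest of all arrays for Cxcl1.

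Cxcl5, an epithelial chemokine of the inflamed gut, showed the lowest unadjusted p of the 9 genes. Its level was 4.11, 1.56 and 2.76 on RG@M-γ-CD replicates 1, 2 and 3. On PBS replicates 1, 2 and 3 it was 5.54, 4.44 and 5.23. All 3 RG@M-γ-CD arrays were below all 3 PBS arrays, with replicate 2 the lowest and replicate 1 close to the lowest PBS array. The log2 change was −2.26 (SE 0.65, 95% interval −3.82 to −0.70, n = 3 per group), a 4.78-fold lower mean, with an unadjusted p of 0.0116 from limma and an exact permutation p of 0.10. Over all genes tested, 872 (4.57%) did not overlap between the groups, and 418 (2.19%) were apart and lower. Leaving out single arrays gave changes between −2.91 and −1.63. Once RG@M-γ-CD replicate 1 was left out, the change was −2.91 (adjusted p = 0.0590 in limma), and it was −2.67 without replicate 1 of both groups (adjusted p = 0.142). Arrays 6, 7 and 8 minus arrays 5, 10 and 11 gave −1.31 (5 genes called, 0.0259%, none of the 9), and these sets overlapped.

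Cxcl1, also known as KC, stood at 2.11, 0.55 and 0.29 on RG@M-γ-CD replicates 1, 2 and 3. On the PBS arrays it stood at 1.76, 1.72 and 1.99, within a 1.21-fold range. RG@M-γ-CD replicate 1 was the highest of the 6 arrays and replicates 2 and 3 were the lowest, so the groups overlapped. The log2 change was −0.83 (SE 0.47, 95% interval −1.97 to 0.30), with an exact permutation p of 0.40. It was −1.40 with RG@M-γ-CD replicate 1 left out, a 2.64-fold lower mean, at an adjusted p of 0.0402 in limma. In that fit 206 of 19463 genes (1.06%) passed the adjusted threshold, 39 lower and 167 higher. Leaving out any other single array gave Cxcl1 an adjusted p of at least 0.9997 in limma. Without replicate 1 of both groups the change of Cxcl1 was −1.43 (adjusted p = 0.0993 in limma), and 0 genes passed, with 2406 (12.3%) at an unadjusted p below 0.05.

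Cxcl3 and Cxcl2, which act on the same receptor as Cxcl1, were dim. Cxcl3 stood at −2.58, −6.46 and −3.02 on RG@M-γ-CD replicates 1, 2 and 3, of which replicate 2 was not well above background. It stood at −1.17, −2.43 and −1.35 on the PBS arrays. The groups did not overlap, although RG@M-γ-CD replicate 1 was only slightly below PBS replicate 2. The fitted log2 change of Cxcl3 was −2.36 (SE 1.02, 95% interval −4.82 to 0.10, exact permutation p = 0.10). It was −1.60 with dim values raised to the lowest signal well above background on their array, −1.03 after normexp background correction and −1.15 without RG@M-γ-CD replicate 2. Larger values were −3.09 with RG@M-γ-CD replicate 1 left out, −2.84 without replicate 1 of both groups and −2.85 with the slide row as a block. Arrays 6, 7 and 8 minus arrays 5, 10 and 11 gave −1.43.

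Cxcl2 (MIP-2) stood at −2.47, −4.20 and −3.67 on RG@M-γ-CD replicates 1, 2 and 3, of which replicate 2 was not well above background. On PBS it stood at −1.52, −3.23 and −2.30. The groups overlapped, since RG@M-γ-CD replicate 1 lay between PBS replicates 2 and 3. The log2 change of −1.10 (SE 0.58, 95% interval −2.48 to 0.29, exact permutation p = 0.20) was close to the spread within PBS, which spanned 3.28-fold. It was −0.55 after normexp correction, −0.68 without PBS replicate 1 and −0.72 without RG@M-γ-CD replicate 2. Further values were −1.93 with the slide row as a block and −1.17 without replicate 1 of both groups. For arrays 6, 7 and 8 minus arrays 5, 10 and 11 the change of Cxcl2 was −0.46.

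Ppbp, the precursor of the platelet-borne chemokine Cxcl7, stood at −3.45, −6.47 and −3.06 on RG@M-γ-CD replicates 1, 2 and 3, of which replicate 2 was not well above background. On PBS it stood at −2.68, −1.59 and −2.31. The groups did not overlap, and PBS replicate 2 was the highest array here, unlike for the other chemokines. The fitted log2 change was −2.14 (SE 0.89, 95% interval −4.29 to 0.01, exact permutation p = 0.10). It was −1.37 with dim values raised, −0.79 after normexp correction, −1.07 without RG@M-γ-CD replicate 2, −2.82 without replicate 1 of both groups and −1.62 for arrays 6, 7 and 8 minus arrays 5, 10 and 11. Pf4, the other platelet chemokine and the neighbor of Ppbp, stood at 1.64, 1.24 and 1.29 on RG@M-γ-CD and at 1.81, 1.97 and 1.83 on PBS, with no overlap (log2 change −0.48, SE 0.17, unadjusted p = 0.0285, adjusted p = 0.99998 in limma). Of 10 platelet and megakaryocyte markers, 3 could be tested, Pf4 among them, and Gp1bb and Itgb3 had changes of 0.21 and 0.22. The summed level of these 3 markers, in multiples of the 75th percentile, ranged from 4.84 to 5.74 in RG@M-γ-CD and from 5.53 to 5.95 in PBS, and its part in the Ppbp values was not tested.

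Cxcr2, the neutrophil receptor for all of these ligands, was dim, and RG@M-γ-CD replicates 2 and 3 were not well above background. It stood at −2.86, −6.46 and −5.91 on RG@M-γ-CD replicates 1, 2 and 3. On PBS it stood at −2.78, −3.80 and −3.28. RG@M-γ-CD replicate 1 lay within the PBS range, so the groups overlapped. The fitted log2 change was −1.79 (SE 0.92, 95% interval −4.01 to 0.42, exact permutation p = 0.30). It shrank to −0.46 with dim values raised, to −0.43 after normexp correction and to −1.10 without RG@M-γ-CD replicate 2. Once RG@M-γ-CD replicate 1 was left out, no treated array measured Cxcr2. It was then at least 1.88-fold lower than in PBS, where the dim group was set to the lowest signal well above background on each array, and at least 1.57-fold lower without replicate 1 of both groups. The fits on the dim values themselves gave log2 changes of −2.90 (adjusted p = 0.0332 in limma) and −2.64 (adjusted p = 0.0781). These p-values do not belong to the bounds, and the filter passed Cxcr2 through PBS alone. Leaving out any single array other than RG@M-γ-CD replicate 1 gave Cxcr2 an adjusted p of at least 0.9997 in limma.

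Cxcr1, the second receptor, lay between −6.88 and −6.20 on all 6 arrays, and Csf3 between −6.85 and −5.70. Both were thus not detectable on these arrays in either group, and no fold is given.

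**Figure D2:**
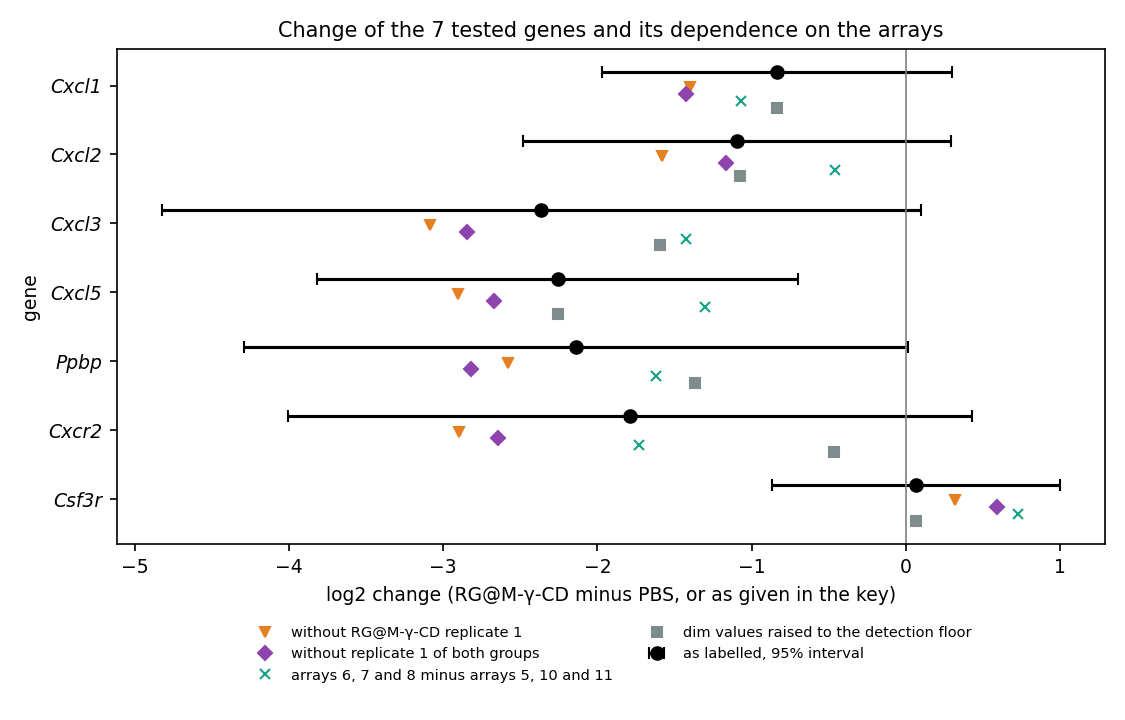
Log2 change of the 7 tested genes (x axis) by gene (y axis), with black points and 95% intervals for the arrays as labelled and other symbols for other sets of arrays or for dim values raised to the lowest signal well above background. The interval of Cxcl5, −3.82 to −0.70, lies below 0, and the points of Cxcr2 range from −2.90 to −0.46.

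Csf3r did not follow the chemokines. It stood at 5.02, 6.25 and 5.30 on RG@M-γ-CD replicates 1, 2 and 3 and at 6.01, 5.19 and 5.18 on PBS. RG@M-γ-CD replicate 2 was the highest and replicate 1 the lowest, whereas replicate 1 was the highest array for Cxcl1, and the groups overlapped. The log2 change was 0.06 (SE 0.39, 95% interval −0.87 to 0.997, exact permutation p = 0.80). Its sign turned without RG@M-γ-CD replicate 2 (−0.30), without PBS replicate 2 (−0.07), without PBS replicate 3 (−0.08) and with the slide row as a block (−0.49). Without replicate 1 of both groups it was 0.59 (adjusted p = 0.543 in limma). Arrays 6, 7 and 8 were all above arrays 5, 10 and 11, by 0.72 (adjusted p = 0.297 in limma). Of the 19295 genes tested between these sets, 25.5% did not overlap.

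The probe of Csf3r was the only 1 of the 9 that shared a run of at least 20 bases with probes of other genes. Its bases 31 to 60 are shown because this stretch holds letters of the B1 family of interspersed repeats, which are scattered through mouse transcripts. Capitals mark the 20 bases found on the same strand in probes of 2 other genes.
Csf3r: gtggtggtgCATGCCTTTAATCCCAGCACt
The 2 other probes are annotated as Gm1305 and TC1653005, and the whole stretch of 30 bases was present in the probe of TC1653005. Relative to its own mean, Csf3r stood at −0.47, 0.76 and −0.19 on RG@M-γ-CD and at 0.52, −0.30 and −0.31 on PBS. The median of the 2 other probes stood at −0.47, 0.67 and −0.15 on RG@M-γ-CD and at 0.59, −0.31 and −0.33 on PBS. Their median log2 change was 0.03. The part of other transcripts in the Csf3r signal was not tested.

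The genes closest in pattern were named by the root mean square of the log2 differences over the 6 arrays, after each gene was centered on its mean, among 18109 genes well above background on all arrays. For Cxcl1 these were Pik3cg (0.12), which encodes the PI3-kinase subunit that acts downstream of chemokine receptors, Usp18 (0.14), an interferon-induced protease, and Zmynd15 (0.18). For Cxcl5 they were Mab21l3 (0.36), Lrg1 (0.41), a secreted glycoprotein of the acute phase, and 1500009C09Rik (0.48). For Csf3r they were Mtif2 (0.04), a mitochondrial translation factor, Odf2 (0.06) and an unnamed noncoding transcript (0.07). Gm1305 and TC1653005, with the shared run of bases, were both among the 20 genes closest to Csf3r.

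Neutrophil markers ranked the RG@M-γ-CD arrays much as Cxcl1 and Cxcr2 did, with replicate 1 high and replicates 2 and 3 low. Macrophage and monocyte markers and T cell markers ranked these arrays alike, as given below. Among the 3 RG@M-γ-CD arrays, the sums of mast cell and of B and plasma cell markers were lowest on replicate 1. Of 26 listed neutrophil markers, 23 were tested, and RG@M-γ-CD had a lower mean in 22 and a higher mean in 1. Of all genes, 52.8% were lower. The median log2 change of the markers was −0.83, against −0.01 for all genes. Of the 23, 15 were well above background on all 6 arrays. Markers that passed through the PBS arrays alone had a low RG@M-γ-CD value built into the filter. Camp, given below, passed through the RG@M-γ-CD arrays alone. With only probes well above background on all 6 arrays, the median was −0.80. At an unadjusted p below 0.05, 1 of the 23 was lower (1.33% of all genes) and 1 higher (0.864%), and none passed the adjustment in limma. Their summed level, in multiples of the 75th percentile, was 111, 18.1 and 24.8 on RG@M-γ-CD replicates 1, 2 and 3 and 81.0, 65.5 and 120.4 on PBS. Brighter genes weigh more in such sums. The median log2 level of the markers was −0.59, −2.66 and −2.26 on RG@M-γ-CD and −0.60, −1.27 and −0.99 on PBS. By sum and by median, RG@M-γ-CD replicates 2 and 3 were below all PBS arrays. Replicate 1 was within the PBS range by the sum and just above it by the median. The median change was −0.43 without RG@M-γ-CD replicate 2, −1.44 without replicate 1 and −1.24 without replicate 1 of both groups, and −0.33 after normexp correction. In whole tissue, fewer neutrophils and less RNA per neutrophil cannot be told apart, and the part of the neutrophil content in the Cxcr2 values was not tested.

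Lcn2, an iron-binding protein of neutrophil granules that inflamed epithelium also makes, stood at 4.57, 1.70 and 3.20 on RG@M-γ-CD and at 4.62, 4.86 and 5.64 on PBS. The groups did not overlap, but RG@M-γ-CD replicate 1 nearly reached PBS replicate 1 (log2 change −1.88, SE 0.71, unadjusted p = 0.0352 in limma). S100a9, a calprotectin subunit, stood at 5.74, 0.95 and 2.02 on RG@M-γ-CD and at 4.83, 4.07 and 5.06 on PBS. RG@M-γ-CD replicate 1 was its highest array and replicate 2 its lowest, and its change was −1.75 (SE 1.17). Padi4, the enzyme that citrullinates histones in neutrophils, had a change of −0.80 (SE 0.57), Ly6g, the surface marker of mouse neutrophils, one of −0.53 (SE 0.35), and Cd177, another surface protein, one of −0.31 (SE 0.44). Camp, the precursor of cathelicidin, was the marker with a higher mean in RG@M-γ-CD (0.54, SE 0.21, unadjusted p = 0.0425 in limma). It was dim, at −3.93, −3.71 and −3.33 on RG@M-γ-CD and at −4.11, −4.43 and −4.06 on PBS. PBS replicate 2 was not well above background, so Camp passed the filter through the RG@M-γ-CD arrays alone. A low PBS value was thus built into the filter for Camp. Mpo, Ngp and Prtn3 did not pass the filter, while Elane, also on the list, was well above background on all 6 arrays (log2 change −0.06, SE 0.25).

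**Figure D3:**
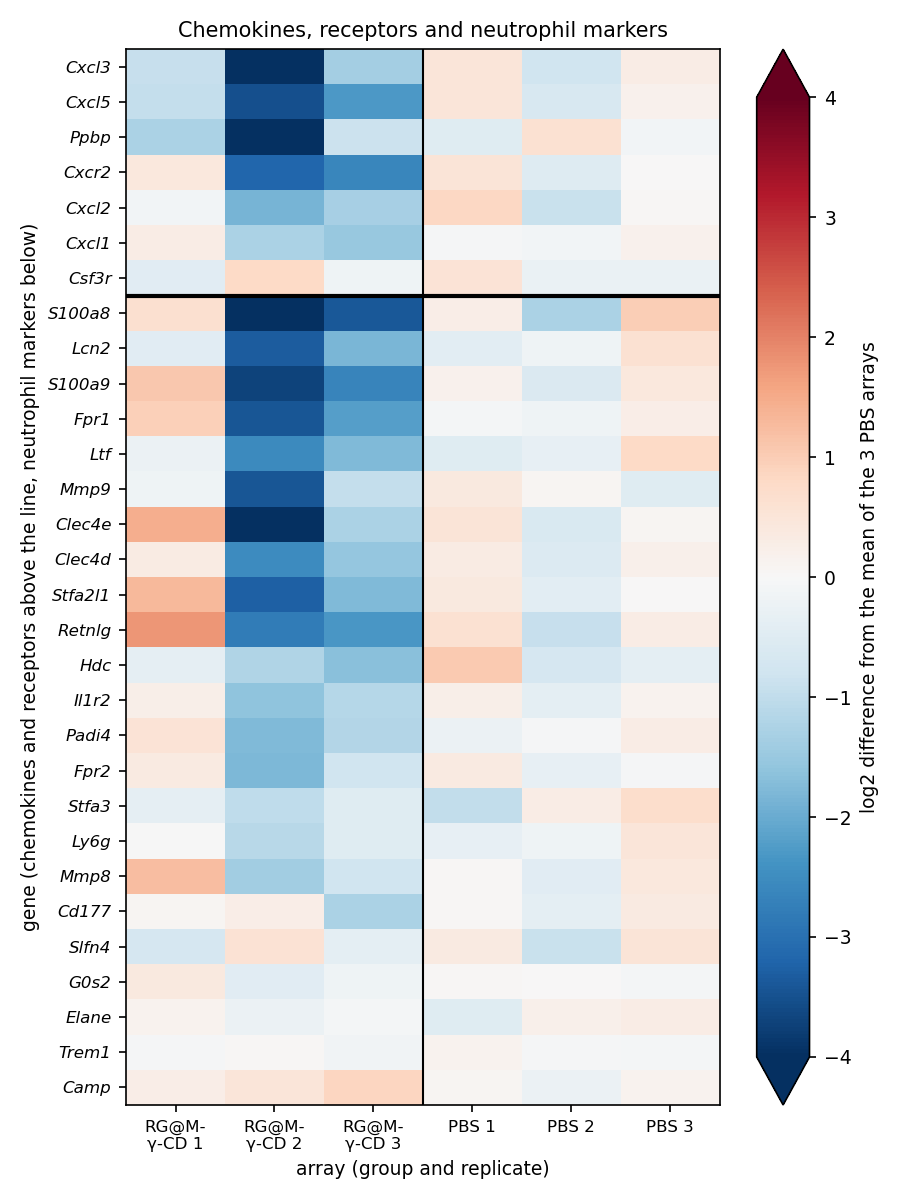
Log2 difference of each gene (y axis) from its mean over the 3 PBS arrays, by array (x axis), with blue lower and red higher and values past 4 in either direction shown at the end of the scale. The 7 tested chemokine and receptor genes stand above the line and 23 neutrophil markers below it. RG@M-γ-CD replicate 2 is the lowest array for Cxcl3, Cxcl5, Ppbp, Cxcr2 and S100a8, and replicate 1 is near PBS for most markers.

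The summed marker levels of the other cell types overlapped between the groups, and no test of a difference was run on them. All 12 macrophage and monocyte markers were lower in RG@M-γ-CD (median −0.50), with Cd14, the co-receptor for lipopolysaccharide, at −0.41 (unadjusted p = 0.0486 in limma). Their sum was 298, 135 and 177 on RG@M-γ-CD replicates 1, 2 and 3 and ranged from 260 to 331 in PBS. All 6 tested T cell markers were lower (median −0.59), with Cd3g at −0.64 (unadjusted p = 0.0385 in limma). The T cell sum was 5.70, 3.26 and 3.73 on RG@M-γ-CD replicates 1, 2 and 3 and ranged from 5.41 to 6.95 in PBS. All 6 smooth muscle markers had a higher mean (median 0.97), as had all 7 endothelial markers (median 0.34). The smooth muscle sum was 63.1, 415 and 505 on RG@M-γ-CD replicates 1, 2 and 3 and ranged from 117 to 147 in PBS. RG@M-γ-CD replicate 1 was thus its lowest array and replicates 2 and 3, on which the chemokines and neutrophil markers were low, its highest. Colon epithelium (7 of 12 higher, median 0.02), fibroblast (4 of 7 higher, median 0.02), mast cell (2 of 7 higher, median −0.06) and B and plasma cell markers (2 of 6 higher, median −0.25) showed smaller medians. Of 3 tested exocrine pancreas genes 2 were lower, among them Prss2, a trypsinogen, whose mean was at least 3.43-fold lower. Prss2 stood at −3.05, −0.28 and −4.34 on PBS replicates 1, 2 and 3, and the RG@M-γ-CD mean used for the bound was −4.34. The bound thus rests largely on PBS replicate 2. No RG@M-γ-CD array measured Prss2, which passed the filter through PBS alone, and its unadjusted p of 0.00452 in limma is that of the fit on dim values. The part of the tissue mixture in the chemokine values was not tested.

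Around the chemokines and receptors, 82 further genes of neutrophil recruitment were listed by role, and 71 were tested. Of these, 58 had a lower and 13 a higher mean in RG@M-γ-CD, where 52.8% of all genes were lower, with a median log2 change of −0.21 against −0.01 for all genes. At an unadjusted p below 0.05, 5 were lower (1.33% of all genes) and none was higher (0.864%), and none passed the adjustment in limma. The median of the list was −0.31 without RG@M-γ-CD replicate 1, −0.14 without replicate 2 and −0.27 without replicate 1 of both groups.

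Among the inducers of the chemokines 5 of 7 tested genes were lower (median −0.75). The exceptions were Il6 at 0.88 (SE 0.61) and Il18 at 0.11 (SE 0.23). Il23a, a subunit of IL-23, which sustains IL-17 production, had a change of −1.05 (SE 0.42, unadjusted p = 0.0421 in limma). It stood at −1.84, −2.96 and −3.12 on RG@M-γ-CD and at −0.997, −1.82 and −1.93 on PBS. RG@M-γ-CD replicate 1 lay within the PBS range and the groups overlapped. Csf2, Il17a, Il17f and Il1a did not pass the filter. Of the receptors and adapters of the inducers 7 of 10 were lower (median −0.08), and Tnfrsf1b, a TNF receptor of leukocytes, had a change of −0.80 (SE 0.32, unadjusted p = 0.0459 in limma). For Tnfrsf1b, too, RG@M-γ-CD replicate 1 lay within the PBS range and the groups overlapped.

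Among the transcription factors and brakes of the response 9 of 10 were lower (median −0.24), and the exception was Zfp36, a protein that marks chemokine and TNF mRNA for decay, at 0.81 (SE 0.47). Zfp36 stood at 2.74, 4.55 and 2.95 on RG@M-γ-CD and at 2.65, 2.71 and 2.45 on PBS. The groups did not overlap, and RG@M-γ-CD replicate 2 was the highest, while replicates 1 and 3 barely exceeded PBS. The other CXC ligands and related receptors were lower in 5 of 7 (median −0.21), and Cxcl12, the ligand that holds neutrophils in the marrow, had a change of 0.56 (SE 0.43).

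Of the other chemoattractant receptors on neutrophils all 4 tested were lower (median −0.73). C5ar1, the receptor for complement C5a, had a change of −0.71 (SE 0.28, unadjusted p = 0.0390 in limma), and the groups overlapped through RG@M-γ-CD replicate 1. Fpr1, the formyl peptide receptor, had a change of −1.56 (SE 1.04), with 1 RG@M-γ-CD array well above background. Receptor signaling genes were lower in 15 of 17 (median −0.21), with Pik3cg at −0.72 (SE 0.45). Genes of adhesion and exit from vessels were lower in 7 of 9 (median −0.46), with Itgal, an integrin of leukocytes, at −0.64 (SE 0.24, unadjusted p = 0.0354 in limma). For Itgal too the groups overlapped through RG@M-γ-CD replicate 1. Genes of G-CSF receptor signaling and granulocyte growth were lower in 6 of 7 (median −0.14), with Csf2rb, the receptor chain for GM-CSF, at −0.75 (SE 0.33).

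**Figure D4:**
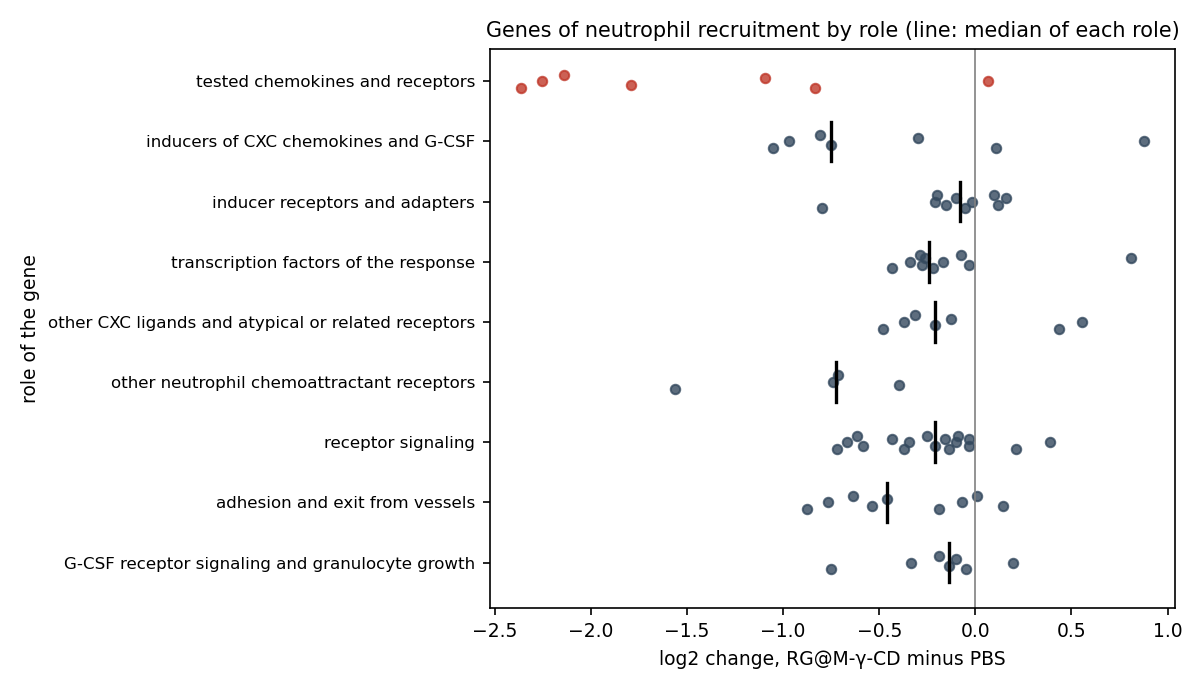
Log2 change of each tested gene, RG@M-γ-CD minus PBS (x axis), by role (y axis), with the 7 tested chemokine and receptor genes in red on top. Vertical lines are the medians of the other roles, which range from −0.75 for the inducers to −0.08 for their receptors and adapters.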

How the data were processed

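Total RNA from tumor-bearing colon of 3 RG@M-γ-CD and 3 PBS mice was labeled with Cy3 and hybridized to one-color Agilent arrays. Per the labels, Agilent Feature Extraction 10.7.1.1 was used. The intensities deposited by the authors are processed signals, background-corrected and without normalization across arrays. The log2 values per probe of the table deposited by the authors followed the intensities of the same array (lowest r 0.9991 across probes) and were used as an alternative. Samples were grouped by the labels.

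Control and outlier spots (790 over 6 arrays) were left out in R 4.3.3 (package data.table, version 1.17.8), and log2 intensities were centered on each array's 75th percentile. Symbols of 32994 probes (58.3%) were taken through their accession, and the others kept the scanner's name. Genes whose probe was well above background on all 3 arrays of a group were tested on the brightest such probe with limma 3.58.1, and p-values were adjusted over 19087 genes. The fit was tested on simulated data. The number of arrays limits the precision. Alternatives changed 1 choice at a time: quantile normalization, normexp (offset 50), the authors' table, other filters, the mean of probes, outliers kept, blocks, the methods' t-test, the heat map's grouping and arrays left out. Raising dim values was chosen after seeing the data. Of the listed genes, 198 of 202 entries were on the array. The text names all 9 genes, listed genes below an unadjusted p of 0.05, the largest change of each role, the 5 brightest neutrophil markers and the 3 closest genes in pattern. Of these, 1 gene is not reported here. Platelet chemokine values, Elane, pathway genes outside this rule and genes that did not pass the filter were named after their values were seen. The genes and lists were chosen with earlier results of these data known.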

Additional observations from a re-analysis of the deposited data

How the results depend on the processing

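The changes of Cxcl1, Cxcl2, Cxcl3, Cxcl5, Ppbp and Cxcr2 kept their sign under every alternative that gave a value, while that of Csf3r turned to −0.49 with the slide row as a block. Dim signals limit the size of the change of Cxcl2, Cxcl3, Ppbp and Cxcr2, which shrank with normexp correction. With that correction the median of the tested chemokine and receptor genes moved from −1.79 to −0.74. Cxcl2, Cxcl3, Ppbp and Cxcr2 passed the filter through the PBS arrays alone, so low RG@M-γ-CD values were built into the median of −1.79. With only probes well above background on all 6 arrays, which leaves Cxcl1, Cxcl5 and Csf3r, the median was −0.83 without normexp correction. Cxcl1 (−0.83 to −0.74) and Cxcl5 (−2.26 to −2.17), well above background on all arrays, moved little. With the slide row as a block, PBS replicate 1 was the only PBS array compared with RG@M-γ-CD. The median of all genes was then 0.10, and that of the pathway list moved from −0.21 to −0.35. Leaving out single arrays gave 0 to 206 genes called, log2 changes of −1.40 to −0.49 for Cxcl1, −2.90 to −1.10 for Cxcr2 (a fit on dim values, bounded in the text) and −0.30 to 0.34 for Csf3r. The heat map's grouping gave 5 genes called, none of them among the 9. The replicate numbers did not pair the mice (correlations of −0.25, −0.23 and 0.14), and with the replicate block 0 genes were called and no call among the 9 genes changed.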
